A study of Homo sapiens with 32 samples.

Results

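The NEDD8 conjugation and exchange machinery was described here through 10 genes: NEDD8, the protease SENP8, the activating enzyme subunits NAE1 and UBA3, the conjugating enzymes UBE2M and UBE2F, the RING proteins RBX1 and RNF7, the co-ligase DCUN1D1 and the exchange factor CAND1. They were chosen by gene symbol, with earlier results of these data known. All 10 were found in each of the 6 deposited count tables and passed the filter on low counts in every comparison. They are 10 of the 18601 genes tested across the 16 knockdown libraries.

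NEDD8 is a small protein related to ubiquitin that is attached to cullins, the scaffolds of the largest family of ubiquitin ligases, and attachment switches the ligase on. SENP8 trims the NEDD8 precursor, the NAE1 and UBA3 dimer activates NEDD8, and UBE2M or UBE2F carries it to the cullin. UBE2M works with RBX1 on most cullins, whereas UBE2F works with RNF7 on CUL5, and DCUN1D1 helps the transfer. The COP9 signalosome removes NEDD8 through its catalytic subunit CSN5, encoded by COPS5, after which CAND1 can bind the bare cullin and exchange its substrate receptor. Loss of CSN5 activity is therefore a change at the removal step, and the question addressed here is what happened to the transcripts of the attachment and exchange steps.

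Total RNA was sequenced from 4 established human prostate cancer lines in 32 libraries, with 2 libraries in each of 16 groups. LNCaP is an androgen-sensitive line, C4-2 is its castration-resistant derivative, 22Rv1 likewise grows after castration, and PC3 grows without androgen. In the knockdown experiment, cells of each line infected with an shRNA against CSN5 (shCSN5) were compared with cells infected with a scramble shRNA. In the inhibitor experiment, CSN5i-3, which blocks the enzyme activity of CSN5, was set against its solvent DMSO. The dose was 5 µM for LNCaP and also for 22Rv1, and 10 µM for PC3. For the C4-2 inhibitor libraries, titles and descriptions name opposite treatments. The libraries titled C5i are described as DMSO, and those titled NT are described as CSN5i-3 at 1 µM. For this reason the contrast is named by titles alone (titled C5i minus titled NT) and is not counted with the other 7. For replicate 2 of PC3 shCSN5, 1 characteristic speaks of drug treatment while title and description say shCSN5, and the latter were used. Treatment times are not known here. Nothing in the labels says that the replicates were separate cultures, so a p-value here reflects the spread of these libraries alone, which may be technical.

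Depth was 20.6 to 32.5 M counts a library for knockdown and 29.5 to 50.9 M for the inhibitor. COPS5 fell in all 4 knockdown comparisons, with log2 fold changes of -4.50 in LNCaP, -3.56 in C4-2, -2.68 in 22Rv1 and -3.18 in PC3. KLK3, a marker of luminal prostate cells, was present in the libraries labelled LNCaP, C4-2 and 22Rv1. In the PC3 groups, mean KLK3 was at most 0.0477 CPM (counts relative to the library total after TMM scaling). Other luminal markers were present there, since 3 of the 7 listed reached 1 CPM in each PC3 group. The 7 luminal markers summed to 287 to 371 CPM in PC3 scramble libraries and 6891 to 6994 CPM in LNCaP scramble libraries. Among markers of other cell types, the summed leukocyte list had a mean of 0.416 CPM in LNCaP DMSO and 25.1 CPM in LNCaP CSN5i-3, of which CD68 made up 24.8 CPM. The list stood at 15.2 CPM in titled NT and 52.3 CPM in titled C5i C4-2 libraries, the latter with 51.9 CPM of CD68, while LYZ led the former at 8.22 CPM. In that contrast 1 leukocyte marker was called higher and 1 lower. Some fibroblast and endothelial markers were present as well. In PC3, mean COL1A1 was 55.3 CPM with DMSO and 14.2 CPM with CSN5i-3, and KDR was 16.2 and 4.09 CPM. VWF stood at 11.7 CPM in LNCaP DMSO and 2.87 CPM in LNCaP CSN5i-3. LUM stood at 9.46 CPM in 22Rv1 DMSO and 26.3 CPM in 22Rv1 CSN5i-3. The part of all these transcripts in the results was not tested. The 2 LNCaP shCSN5 libraries differed from each other more than those of any other group, with a chi-square per gene of 71.3. Counting error gives about 1, and the other 15 groups ran from 1.72 to 57.4. Libraries were closest in PC3 DMSO (1.72), LNCaP scramble (1.83) and PC3 CSN5i-3 (2.41). The very small p-values of PC3 with CSN5i-3 rest on that spread near counting error. A fit without 1 LNCaP shCSN5 library likewise takes its spread from the LNCaP scramble pair alone.

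The clearest change in the machinery was a higher level of UBE2F, the NEDD8 conjugating enzyme for CUL5. It rose in 5 of the 7 consistently labelled contrasts, by 0.90 ± 0.17 on the log2 scale (SE) in LNCaP, 0.72 ± 0.13 in C4-2 and 0.33 ± 0.096 in 22Rv1 with shCSN5, and by 0.69 ± 0.075 in LNCaP and 0.48 ± 0.045 in PC3 with CSN5i-3. RNF7, the RING protein that works with UBE2F, rose in 3 of the 7. DCUN1D1 also rose in 3, whereas NEDD8 itself fell in 1, and SENP8 and UBA3 had no value that passed in the 7. A gene was called changed where the Benjamini-Hochberg adjusted p of the quasi-likelihood test of edgeR over all genes was under 0.05. By this rule 16.7% to 77.1% of all genes were called, in either direction, in the 7 contrasts. How many genes were called in as many contrasts as UBE2F, RNF7 or DCUN1D1 was not counted. Since these are bulk cultures, a lower share of cells of one kind and less RNA per cell cannot be told apart.

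**Figure D1:**
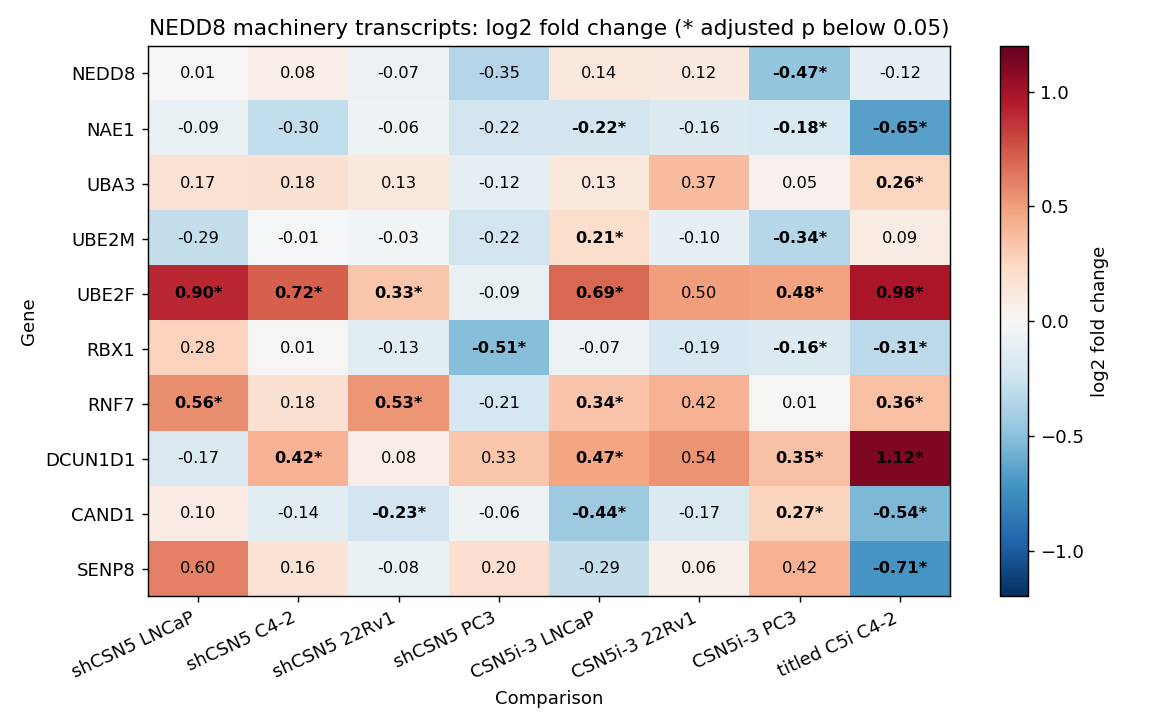
Log2 fold change of each of the 10 genes (rows) in each treatment contrast (columns, 2 libraries against 2), with asterisks and bold type where the adjusted p was under 0.05. UBE2F is red in every column but PC3 shCSN5 (-0.09), and NAE1 is below 0 in every column, called in 3.

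Most contrasts changed a large share of all genes, and the members as a group did not exceed that share by much in any of them. With shCSN5, 2 of 10 members passed in LNCaP, where 35.7% of all genes tested did, and 2 of 10 in C4-2, against 32.0%. In 22Rv1 3 of 10 passed against 43.9% of all genes, and in PC3 1 of 10 against 16.7%. With CSN5i-3, 6 of 10 members passed in LNCaP (all genes 52.6%), 7 of 10 in PC3 (77.1%) and 0 of 10 in 22Rv1 (24.0%), where 3 had an unadjusted p under 0.05 in edgeR and DESeq2 also called 0. In the titled C4-2 contrast 8 of 10 passed, against 74.9%. The members' median log2 fold change lay between -0.16 and 0.14 in these 8 contrasts, where the median over all genes lay between -0.04 and 0.04. Groups that did not overlap were common among all genes tested, at 72.6% in LNCaP, 66.1% in C4-2, 71.8% in 22Rv1 and 62.1% in PC3 with shCSN5, 77.5% in LNCaP, 63.5% in 22Rv1 and 87.3% in PC3 with CSN5i-3, and 87.5% in the titled C4-2 contrast. In LNCaP with shCSN5 the number of members called hung on the library left out: it was 0 without either scramble library and 8 without either shCSN5 library.

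Before treatment the machinery was not at 1 level in the 4 lines. Per kilobase of exon, the scramble LNCaP libraries held most UBE2M (91.5 CPM per kb), followed by NEDD8 (30.5), RNF7 (19.4), NAE1 (14.5), RBX1 (13.97), UBA3 (13.5), CAND1 (11.2), UBE2F (5.07), DCUN1D1 (3.81) and SENP8 (0.889). UBE2M was thus the more abundant of the conjugating enzymes and SENP8 the least abundant member, and both held in the scramble libraries of all 4 lines. Exon lengths came from GENCODE v29 as the union of all annotated exons of a gene, 3879 bases for NEDD8 and 1831 for UBE2M. This union can be longer than the transcript made and may not be what the authors counted over, so the printed order depends on it. In CPM without division by length, UBE2M was also above UBE2F, and SENP8 lowest, in the scramble libraries of all 4 lines.

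**Figure D2:**
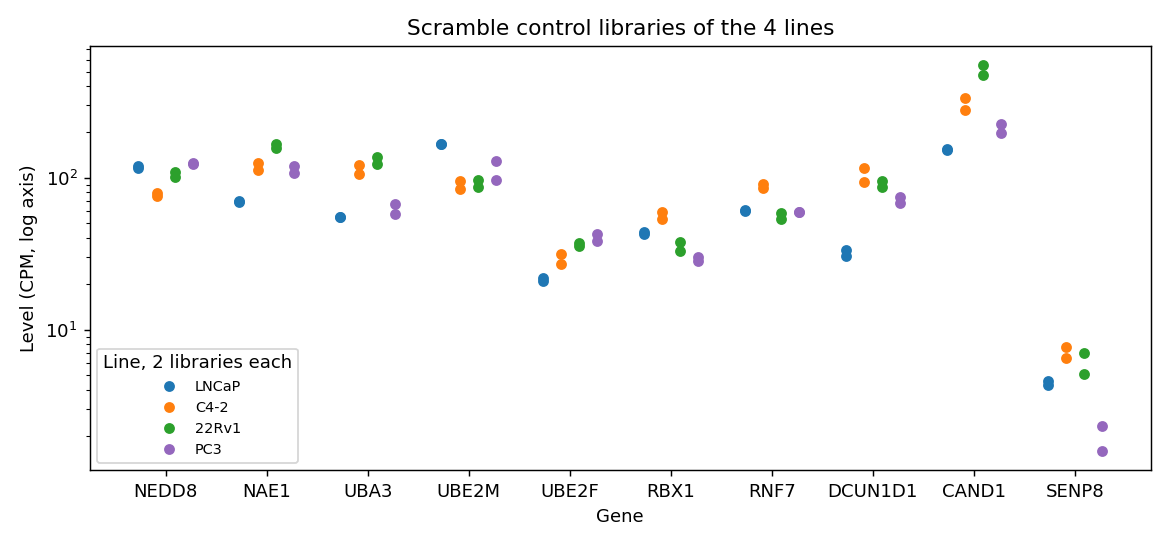
Level of each gene in CPM (log axis) in the 2 scramble libraries of each line. DCUN1D1 and CAND1 spread most between the lines among the genes above 10 CPM, with LNCaP lowest for both.

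C4-2 differed from its parent line in every member. All 10 members passed between the C4-2 and LNCaP scramble libraries, where 73.3% of all genes did. DCUN1D1 read 30.7 and 33.4 CPM in LNCaP and 116 and 94.5 CPM in C4-2, and the groups did not overlap. It was higher in C4-2 by 1.68 ± 0.12 on the log2 scale (adjusted p = 3.2e-05). UBA3 was higher by 1.01 ± 0.097, CAND1 by 0.97 ± 0.10, NAE1 by 0.73 ± 0.090, SENP8 by 0.64 ± 0.15, RNF7 by 0.50 ± 0.089, UBE2F by 0.41 ± 0.12 and RBX1 by 0.36 ± 0.10. UBE2M (-0.93 ± 0.097) and NEDD8 (-0.64 ± 0.084) went the other way. The calls of UBE2F and RBX1 were lost without either LNCaP scramble library (UBE2F 0.37 and 0.45, RBX1 0.38 and 0.34, adjusted p from 0.12 to 0.20), and that of SENP8 without LNCaP scramble replicate 1 (0.60, adjusted p = 0.051). The LNCaP and C4-2 libraries stand in 2 separately deposited tables, so line and table cannot be told apart in this contrast.

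The lines that share a table also differed. Between the PC3 and LNCaP scramble libraries 7 of 10 members passed, where 79.7% of all genes did. DCUN1D1 (1.08 ± 0.11), UBE2F (0.84 ± 0.11), NAE1 (0.61 ± 0.095) and CAND1 (0.37 ± 0.097) were higher in PC3, and SENP8 (-1.26 ± 0.21), UBE2M (-0.65 ± 0.14) and RBX1 (-0.65 ± 0.10) were lower. The call of CAND1 was lost without either LNCaP scramble library (0.36 in both cases, adjusted p = 0.17). RNF7 was called lower in PC3 without either PC3 scramble library (-0.16 and -0.10), and UBA3 was called higher without PC3 replicate 2 (0.22). Between 22Rv1 and C4-2, 6 of 10 passed against 65.2% of all genes. CAND1 (0.59 ± 0.11), NAE1 (0.32 ± 0.085) and NEDD8 (0.29 ± 0.089) were higher in 22Rv1, and RBX1 (-0.83 ± 0.12), RNF7 (-0.81 ± 0.096) and DCUN1D1 (-0.34 ± 0.11) were lower. Of these, NEDD8 passed in none of the fits that left out 1 of the 4 libraries (0.26 to 0.33, adjusted p from 0.051 to 0.27). NAE1 was lost without either 22Rv1 library or C4-2 replicate 2 (0.25 to 0.35, adjusted p from 0.065 to 0.19), and DCUN1D1 without either 22Rv1 library or C4-2 replicate 1 (-0.39 to -0.22, adjusted p from 0.084 to 0.20). DCUN1D1 was also lost with total counts (-0.23, adjusted p = 0.099), and NEDD8 with DESeq2 (0.27, adjusted p = 0.074).

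NEDD8, the modifier itself, moved little with CSN5 knockdown. In LNCaP it read 117 and 120 CPM in the scramble libraries and 132 and 106 CPM in the shCSN5 libraries, which lay on either side of the controls. The change was 0.01 ± 0.15 (adjusted p = 0.98). Leaving out 1 shCSN5 library at a time gave called changes of opposite sign, -0.15 without replicate 1 (adjusted p = 9.7e-05) and 0.16 without replicate 2 (adjusted p = 1.4e-05), where the spread came from the scramble pair alone. In C4-2 and 22Rv1 the values were 0.08 ± 0.096 and -0.07 ± 0.082, and neither passed. PC3 was lower with both treatments. PC3 read 126 and 124 CPM with scramble shRNA, against 103 and 92.5 CPM after knockdown, with no overlap, but the change of -0.35 ± 0.10 missed the threshold (adjusted p = 0.066). It passed without scramble replicate 2 (-0.42, adjusted p = 0.017) and with the spread shared by all 16 knockdown libraries (-0.36, adjusted p = 0.03). With CSN5i-3, NEDD8 fell in PC3. It read 117 and 119 CPM in DMSO, then 85.0 and 85.7 CPM, a drop well outside the spread of either pair. The fall was -0.47 ± 0.032 (adjusted p = 3.5e-20). In LNCaP it was 0.14 ± 0.067 and in 22Rv1 0.12 ± 0.14, neither called, although LNCaP passed without DMSO replicate 1 (0.20, adjusted p = 0.00036). The titled C4-2 contrast gave -0.12 for NEDD8, which was called with total counts (-0.31, adjusted p = 0.0036). Reads of the readthrough gene NEDD8-MDP1 came to 3.76% of those of NEDD8 in that contrast and to at most 0.353% in the other 7.

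SENP8, the protease that matures NEDD8 and strips it from proteins other than cullins, was the rarest member, at 1.25 to 7.99 CPM over the 16 groups. In LNCaP it read 4.31 and 4.59 CPM with scramble and 7.63 and 5.88 CPM with shCSN5. The groups did not overlap, and the change of 0.60 ± 0.20 missed the threshold (adjusted p = 0.062). Without shCSN5 replicate 1 or 2 the change was 0.41 and 0.78, with the spread taken from the scramble pair alone. The change passed with the shared spread (adjusted p = 0.031). With CSN5i-3 in LNCaP the change was -0.29 ± 0.15 (adjusted p = 0.14), and in PC3 it was 0.42 ± 0.22 (adjusted p = 0.071), which passed without CSN5i-3 replicate 2 (0.62, adjusted p = 0.02). The titled C5i libraries of C4-2 read 2.81 and 2.92 CPM against 4.11 and 5.26 CPM in titled NT, a change of -0.71 ± 0.18 (adjusted p = 0.0045). SENP8 was thus called in that contrast alone of the 8, and its values lay on both sides of 0.

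The activating enzyme showed a small, one-sided shift in NAE1, its regulatory subunit, and none called in UBA3, its catalytic subunit, among the 7 contrasts. NAE1 read 58.4 and 56.2 CPM in LNCaP with DMSO and 47.5 and 50.8 CPM with CSN5i-3. Both treated libraries lay below both controls, and NAE1 fell by 0.22 on the log2 scale (SE 0.075, adjusted p = 0.042). This call was lost without either CSN5i-3 library (-0.19 and -0.28, adjusted p = 0.31 and 0.14) and with DESeq2 (-0.22, adjusted p = 0.08). In PC3 NAE1 read 41.4 and 44.4 CPM, then 39.6 and 35.7 CPM, again without overlap. It fell by 0.18 (SE 0.047, adjusted p = 0.0004), which was lost without CSN5i-3 replicate 2 (-0.10, adjusted p = 0.061). The largest knockdown value was in C4-2, where NAE1 read 124 and 113 CPM with scramble and 97.5 and 95.0 CPM with shCSN5. That change of -0.30 ± 0.098 had an adjusted p of 0.051, and it passed with total counts (-0.31, adjusted p = 0.029) and without scramble replicate 2 (-0.37, adjusted p = 0.041). All 7 values lay below 0, from -0.30 to -0.06, although scaling by total counts brought that of 22Rv1 shCSN5 to 0.0. Over the 4 knockdown lines the mean change was -0.16 ± 0.069 (adjusted p = 0.089), and DESeq2 called it (-0.17, adjusted p = 0.028), as did edgeR without LNCaP shCSN5 replicate 1, 22Rv1 shCSN5 replicate 2 or 22Rv1 scramble replicate 1 (-0.20 to -0.18, adjusted p from 0.036 to 0.049). Among single lines, LNCaP with shCSN5 gave -0.22 without shCSN5 replicate 1, where the spread came from the scramble pair alone.

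UBA3 leaned the other way, with values above 0 in 6 of the 7 contrasts. The largest was in 22Rv1 with CSN5i-3, where UBA3 read 121 and 99.7 CPM with DMSO, and with the inhibitor 130 and 156 CPM. The groups did not overlap, but the change of 0.37 ± 0.17 missed the threshold (adjusted p = 0.15), and it passed without CSN5i-3 replicate 1 (0.55, adjusted p = 0.014). PC3 with shCSN5 was the exception at -0.12 ± 0.14. UBA3 was called with shCSN5 in 22Rv1 with total counts (0.20), and its change there was 0.21 without scramble replicate 2. In LNCaP it was 0.38 without shCSN5 replicate 2, where the spread came from the scramble pair alone. In the titled C4-2 contrast both subunits passed. NAE1 read 52.2 and 57.6 CPM in titled NT and 36.4 and 33.8 CPM in titled C5i (-0.65 ± 0.093, adjusted p = 7.2e-05). UBA3 read 39.1 and 42.3 CPM and then 50.4 and 46.9 CPM (0.26 ± 0.091, adjusted p = 0.023), a call lost with total counts (0.06, adjusted p = 0.56), without either titled C5i library or without titled NT replicate 1 (0.20 to 0.30, adjusted p from 0.054 to 0.23).

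Of the conjugating enzymes, UBE2F was called higher in 5 of the 7 contrasts, and UBE2M was called in 2, once in each direction. UBE2F read 20.96 and 22.02 CPM in the LNCaP scramble libraries and 44.3 and 35.9 CPM with shCSN5. Both knockdown libraries were clear of the controls, and the ratio of the groups was 1.87-fold (adjusted p = 0.01). The call was lost without either scramble library, with log2 changes of 0.86 and 0.93 and adjusted p of 0.22 and 0.17. In C4-2 UBE2F read 31.6 and 26.9 CPM with scramble and 48.2 and 47.9 CPM with shCSN5, also without overlap. The adjusted p was 0.0047, and the call held in all 4 fits that left out 1 library. In 22Rv1 it read 35.3 and 37.1 CPM and then 44.9 and 46.4 CPM, a smaller step that passed at an adjusted p of 0.016. Without shCSN5 replicate 1 or 2 that call was lost (0.38 and 0.30, adjusted p = 0.053 and 0.14), as it was with the shared spread (0.35, adjusted p = 0.06). PC3 was different, at 42.9 and 38.4 CPM with scramble and 40.6 and 35.5 CPM with shCSN5. Those ranges overlapped and the change was -0.09 ± 0.13 (adjusted p = 0.65).

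With the inhibitor, UBE2F was higher in PC3 as well. PC3 read 35.8 and 34.6 CPM with DMSO, and with CSN5i-3 51.0 and 47.2 CPM (adjusted p = 1.5e-14). LNCaP read 30.5 and 29.1 CPM and then 47.5 and 48.7 CPM (adjusted p = 0.00029). Both calls held without any 1 of their 4 libraries. In 22Rv1 the values were 34.5 and 29.2 CPM and then 42.9 and 47.4 CPM, clear of each other. That change of 0.50 ± 0.18 missed the threshold (adjusted p = 0.085) and passed without CSN5i-3 replicate 1 (0.63, adjusted p = 0.032). Titled C5i C4-2 libraries read 57.9 and 58.5 CPM against 29.3 and 29.7 CPM in titled NT, the largest of the UBE2F changes (0.98 ± 0.086, adjusted p = 1.3e-06). Reads of the readthrough gene UBE2F-SCLY were at most 28 in a library, no more than 0.589% of those of UBE2F in any contrast. Adding them ended none of the UBE2F calls.

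**Figure D3:**
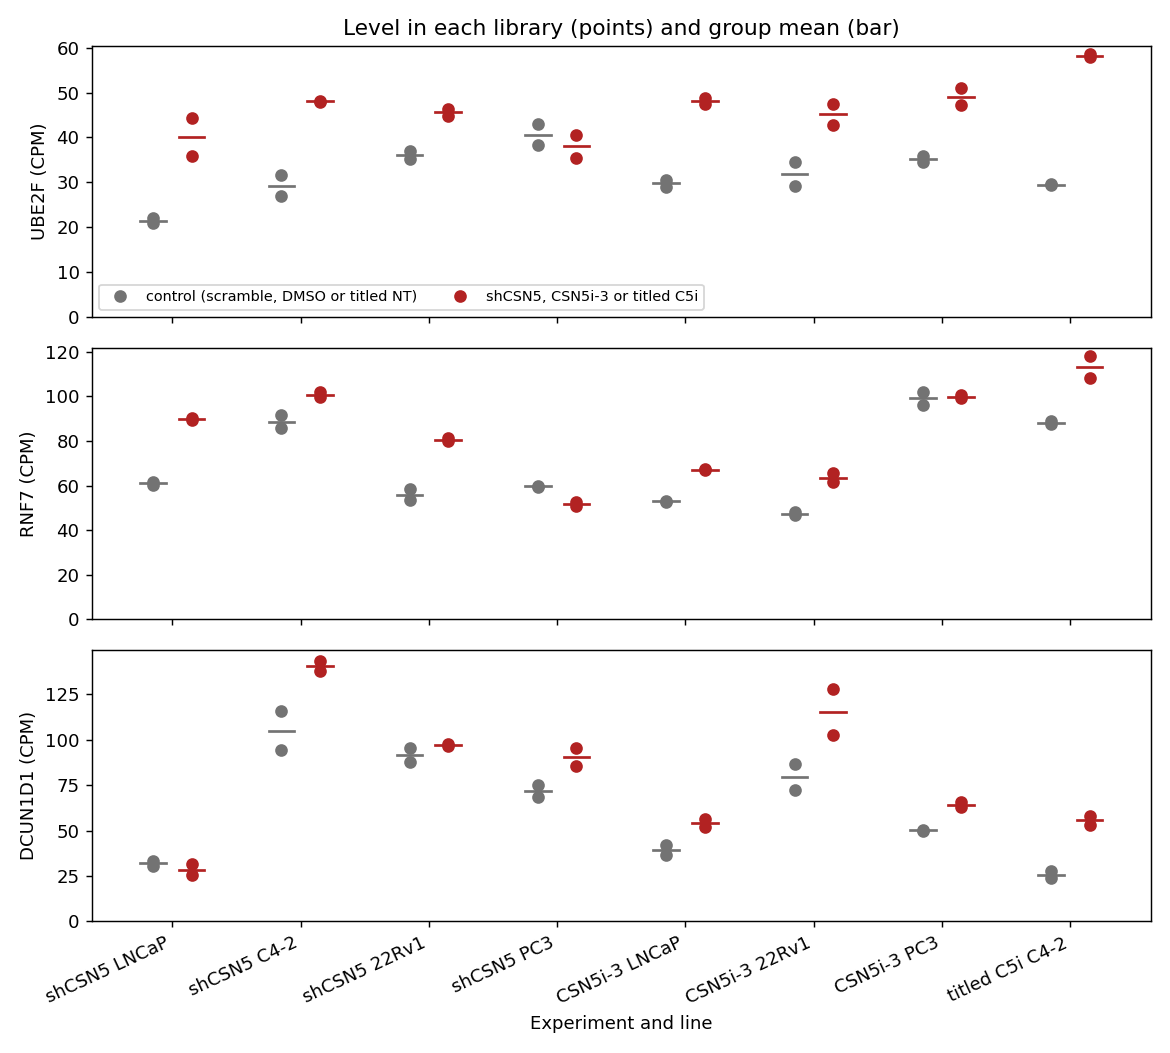
Level in CPM (axis from 0) of UBE2F, RNF7 and DCUN1D1 in each library (points) with the mean of each group (bar), for the 8 treatment contrasts. The red points of UBE2F lie above the grey ones everywhere but in PC3 shCSN5, and RNF7 is lower with shCSN5 in PC3 (50.9 and 52.6 CPM against 59.5 and 59.9 CPM).

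UBE2M, the conjugating enzyme for the other cullins, was called in opposite directions in LNCaP and PC3 with CSN5i-3. In PC3 it read 223 and 232 CPM with DMSO, and with CSN5i-3 178 and 181 CPM, with no overlap, and fell by 0.34 on the log2 scale (SE 0.027, adjusted p = 3.6e-17). In LNCaP it read 102 and 113 CPM and then 128 and 121 CPM, which passed narrowly at 0.21 ± 0.075 (adjusted p = 0.049). That LNCaP call was lost with total counts (0.10, adjusted p = 0.29), with DESeq2 (0.21, adjusted p = 0.085), with no low-count filter (0.20, adjusted p = 0.083) and without either CSN5i-3 library (0.16 and 0.24, adjusted p = 0.40 and 0.19). The LNCaP knockdown libraries disagreed with each other, at 117 and 157 CPM against 168 and 168 CPM with scramble. Their change of -0.29 ± 0.17 was not called (adjusted p = 0.21). It was -0.09 and -0.51 without shCSN5 replicate 1 and 2, where the spread came from the scramble pair alone. In PC3 with shCSN5 the change was -0.22 ± 0.17, which passed without scramble replicate 1 (-0.41, adjusted p = 0.026). The C4-2 and 22Rv1 knockdown values were -0.01 ± 0.11 and -0.03 ± 0.088. In the titled C4-2 contrast UBE2M stood at 0.09 ± 0.089 and passed without titled NT replicate 1 (0.17, adjusted p = 0.04).

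Of the RING proteins, RNF7 was called higher in 3 of the 7 contrasts and RBX1 was called lower in 2. RNF7, the partner of UBE2F, read 61.8 and 60.2 CPM in LNCaP scramble libraries and 89.3 and 90.2 CPM with shCSN5. The 2 libraries of each group nearly coincided, and RNF7 rose by 0.56 ± 0.13 (adjusted p = 0.019). The call was lost without either scramble library (0.57 and 0.54, adjusted p = 0.42 and 0.46). In 22Rv1 it read 53.4 and 58.4 CPM, then 80.0 and 81.4 CPM with shCSN5, and rose by 0.53 ± 0.087 (adjusted p = 0.00057), a call that held without any 1 library. In C4-2 the shCSN5 libraries, at 99.9 and 102 CPM, lay above the scramble libraries at 91.6 and 85.9 CPM, but the change of 0.18 ± 0.095 was not called (adjusted p = 0.18). It passed with the shared spread (0.23, adjusted p = 0.039). In PC3 RNF7 was lower without overlap and not called (-0.21 ± 0.10, adjusted p = 0.21).

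With CSN5i-3, RNF7 in LNCaP read 53.1 and 52.8 CPM, then 67.1 and 67.3 CPM. It rose by 0.34 ± 0.068 (adjusted p = 0.0047), and the call was lost without either CSN5i-3 library (0.34 and 0.33, adjusted p = 0.077 and 0.08). In 22Rv1 it read 46.8 and 48.0 CPM and then 65.5 and 61.8 CPM, again clear of the controls, with a change of 0.42 ± 0.15 that missed the threshold (adjusted p = 0.083). PC3 showed 0.01 ± 0.033, with 96.4 and 102 CPM in DMSO and 99.2 and 101 CPM in CSN5i-3. RNF7 was therefore not called in PC3 with either treatment. In titled C5i C4-2 libraries it read 108 and 118 CPM against 87.7 and 88.8 CPM (0.36 ± 0.080, adjusted p = 0.0017), a call lost with total counts (0.17, adjusted p = 0.085) and without titled C5i replicate 2 (0.28, adjusted p = 0.07).

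RBX1, the RING protein of the other cullins, was called lower in PC3. With shCSN5 it read 30.0 and 28.2 CPM in scramble and 20.93 and 20.04 CPM in knockdown libraries, which were clear of each other. RBX1 fell by 0.51 on the log2 scale (SE 0.12, adjusted p = 0.046). The call was lost with total counts (-0.43, adjusted p = 0.071), without either shCSN5 library (-0.54 and -0.48, adjusted p = 0.28 and 0.32) and without scramble replicate 1 (-0.46, adjusted p = 0.059). With CSN5i-3 in PC3 it read 26.7 and 25.9 CPM, then 23.1 and 24.1 CPM, and fell by 0.16 (SE 0.054, adjusted p = 0.007). That call was lost with DESeq2 (-0.15, adjusted p = 0.075), without CSN5i-3 replicate 1 (-0.12, adjusted p = 0.11) and without DMSO replicate 1 (-0.14, adjusted p = 0.077). In LNCaP with shCSN5 RBX1 was above the controls, at 57.2 and 47.7 CPM against 43.9 and 42.5 CPM, with an uncalled change of 0.28 ± 0.16. That change was 0.15 and 0.41 without shCSN5 replicate 1 and 2, where the spread came from the scramble pair alone. The values in C4-2 and 22Rv1 with shCSN5 were 0.01 ± 0.11 and -0.13 ± 0.12, and with CSN5i-3 they were -0.07 ± 0.072 in LNCaP and -0.19 ± 0.18 in 22Rv1. In titled C5i C4-2 libraries RBX1 was lower by 0.31 (SE 0.090, adjusted p = 0.0086), a call lost without either titled C5i library (-0.32 both times, adjusted p = 0.066 and 0.063).

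Since UBE2F and RNF7 were called higher together in LNCaP with both treatments and in 22Rv1 with shCSN5, the 250 bases before the annotated start of each are shown with those of their counterparts UBE2M and RBX1, whose transcripts, apart from UBE2M in LNCaP with CSN5i-3, were not called higher in the 7 consistently labelled contrasts. The sequences are from RefSeq on GRCh38.p14, where all 10 members matched, DCUN1D1 with 2 starts and SENP8 with 3. Each is written 5′ to 3′ on the strand of its gene, and capitals mark the pentamer CCAAT or its complement ATTGG. The intervals are chr2:237966764-237967013 on the plus strand for UBE2F, chr3:141738048-141738297 on the plus strand for RNF7, chr19:58558612-58558861 on the minus strand for UBE2M and chr22:40951128-40951377 on the plus strand for RBX1.
UBE2F: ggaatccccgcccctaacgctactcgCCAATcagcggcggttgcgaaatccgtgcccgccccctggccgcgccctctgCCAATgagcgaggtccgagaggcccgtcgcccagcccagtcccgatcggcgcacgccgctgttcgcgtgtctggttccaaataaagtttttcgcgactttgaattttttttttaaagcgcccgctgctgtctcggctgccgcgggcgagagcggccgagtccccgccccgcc
RNF7: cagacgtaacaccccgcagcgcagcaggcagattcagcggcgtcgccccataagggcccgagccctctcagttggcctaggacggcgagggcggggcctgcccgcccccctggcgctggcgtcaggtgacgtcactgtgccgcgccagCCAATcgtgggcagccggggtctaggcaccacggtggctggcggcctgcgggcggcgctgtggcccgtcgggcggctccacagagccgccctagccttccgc
UBE2M: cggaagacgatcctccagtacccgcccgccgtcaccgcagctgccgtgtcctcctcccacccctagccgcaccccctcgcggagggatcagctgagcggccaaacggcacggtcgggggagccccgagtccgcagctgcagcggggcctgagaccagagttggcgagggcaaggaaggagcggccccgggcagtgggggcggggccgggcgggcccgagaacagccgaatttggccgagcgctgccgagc
RBX1: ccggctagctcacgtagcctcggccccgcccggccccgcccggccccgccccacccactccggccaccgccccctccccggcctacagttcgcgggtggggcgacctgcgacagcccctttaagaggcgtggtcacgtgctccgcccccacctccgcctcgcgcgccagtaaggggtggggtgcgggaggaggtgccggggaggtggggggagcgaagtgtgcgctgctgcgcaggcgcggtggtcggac

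UBE2F held CCAAT at 224 and 172 bases before the start and RNF7 at 102 bases before it, while the UBE2M and RBX1 windows held none. The pentamer, searched on both strands, is common: 32.0% of the 35116 RefSeq windows of this length hold it. It also occurred 3 times before NAE1, which was not called higher in any of the 7, and once before NEDD8 and 1 of the DCUN1D1 starts. The GC box GGGCGG, present in 42.6% of all windows, was found in all 4 windows shown. RNF7 alone of the 10 members held the palindrome TGACGTCA, the cAMP response element, which 1.65% of all windows hold. The E-box CACGTG (6.34% of all windows) was found before RBX1 and 1 SENP8 start. These matches describe letters and are not evidence of binding.

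DCUN1D1, which brings the charged conjugating enzyme to the cullin, was called higher with CSN5i-3 in 2 of the 3 lines. In LNCaP it read 42.1 and 36.3 CPM with DMSO, and with CSN5i-3 52.1 and 56.4 CPM. The groups were clear of each other and DCUN1D1 rose by 0.47 ± 0.096 (adjusted p = 0.0055), a call lost without CSN5i-3 replicate 2 (0.40, adjusted p = 0.061). In PC3 it read 50.0 and 50.5 CPM and then 65.5 and 62.7 CPM, and rose by 0.35 ± 0.039 (adjusted p = 4.3e-12). In 22Rv1 the largest of the 3 values, 0.54 ± 0.17, missed the threshold (adjusted p = 0.07), with 86.6 and 72.3 CPM against 103 and 128 CPM. It passed with no low-count filter (0.55, adjusted p = 0.018) and without CSN5i-3 replicate 1 (0.74, adjusted p = 0.001).

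The knockdown pattern of DCUN1D1 was less even. C4-2 read 116 and 94.5 CPM with scramble and 138 and 144 CPM with shCSN5, and rose by 0.42 ± 0.12 (adjusted p = 0.03). That call was lost with no low-count filter (0.43, adjusted p = 0.088), without either shCSN5 library (0.45 and 0.36, adjusted p = 0.074 and 0.19) and without scramble replicate 2 (0.28, adjusted p = 0.067). PC3 showed 0.33 ± 0.11 (adjusted p = 0.094), with 75.1 and 68.6 CPM against 95.4 and 85.5 CPM, and passed without scramble replicate 1 (0.40, adjusted p = 0.042). 22Rv1 showed 0.08 ± 0.081. LNCaP was the only line below 0, at 30.7 and 33.4 CPM with scramble and 31.7 and 25.4 CPM with shCSN5. Its change was -0.17 ± 0.17, with overlapping libraries. It was -0.33 without shCSN5 replicate 1, where the spread came from the scramble pair alone. In the titled C4-2 contrast DCUN1D1 had the largest change of any member in any of the 8 contrasts. It read 23.6 and 27.5 CPM in titled NT and 58.0 and 53.2 CPM in titled C5i (1.12 ± 0.10, adjusted p = 1.7e-06).

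CAND1, the exchange factor that binds cullins without NEDD8, was called lower in 2 contrasts and higher in 1. In LNCaP it read 146 and 131 CPM with DMSO, and with CSN5i-3 101 and 103 CPM. Treated libraries were clearly lower, and CAND1 fell by 0.44 on the log2 scale (SE 0.075, adjusted p = 0.0023), without loss of the call in any fit that left out 1 library. In PC3 with CSN5i-3 it went the other way, from 83.2 and 80.0 CPM to 99.6 and 97.0 CPM, and rose by 0.27 ± 0.033 (adjusted p = 1.7e-10). In 22Rv1 with shCSN5 it read 478 and 551 CPM with scramble and 430 and 445 CPM with knockdown, and fell by 0.23 (SE 0.086, adjusted p = 0.045). This call was lost with total counts (-0.17, adjusted p = 0.079), with the shared spread (-0.21, adjusted p = 0.25), without either shCSN5 library (-0.18 and -0.26, adjusted p = 0.26 and 0.076) and without scramble replicate 2 (-0.13, adjusted p = 0.096). The remaining values were 0.10 ± 0.14 in LNCaP, -0.14 ± 0.11 in C4-2 and -0.06 ± 0.12 in PC3 with shCSN5, and -0.17 ± 0.16 in 22Rv1 with CSN5i-3. The LNCaP shCSN5 value was 0.24 without shCSN5 replicate 2, where the spread came from the scramble pair alone. In titled C5i C4-2 libraries CAND1 read 68.9 and 64.4 CPM against 90.9 and 102 CPM (-0.54 ± 0.089, adjusted p = 0.00021).

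Ratios of 2 genes within a library do not depend on how the library was scaled, and in several pairs they moved one way in all 7 consistently labelled contrasts. The ratio of UBE2M to UBE2F was lower in the treated group in all 7 and did not overlap in 6. In LNCaP the mean ratio went from 7.80 with scramble to 3.40 with shCSN5, and in PC3 from 6.46 with DMSO to 3.66 with CSN5i-3. PC3 with shCSN5 was the exception, from 2.76 to 2.54 with overlapping libraries. The ratio of RBX1 to RNF7 was lower in all 7 without overlap, with log2 changes from -0.66 to -0.17. In 22Rv1 it went from 0.631 to 0.400 with shCSN5 and from 0.551 to 0.359 with CSN5i-3.

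Within the activating enzyme, the ratio of NAE1 to UBA3 was lower in all 7 contrasts without overlap. The log2 change ran from -0.10 in PC3 with shCSN5 to -0.53 in 22Rv1 with CSN5i-3, where the mean ratio went from 1.25 to 0.866. The ratio of CAND1 to DCUN1D1 was lower in 6 of 7 without overlap, and higher in LNCaP with shCSN5, from 4.79 to 5.76, also without overlap. It went from 3.53 to 1.88 in LNCaP with CSN5i-3. SENP8 to NEDD8 had no common direction, with changes from -0.44 to 0.87. In titled C5i minus titled NT the log2 changes were -0.89 for UBE2M to UBE2F, -0.66 for RBX1 to RNF7, -0.90 for NAE1 to UBA3, -1.66 for CAND1 to DCUN1D1 and -0.58 for SENP8 to NEDD8, and read by the descriptions each would have the opposite sign. No test was run on the ratios, and the spread of the libraries is their only measure of error. Ratios of other gene pairs were not computed, so how common such shifts are is not known. For single genes, the share without overlap ran from 62.1% to 87.3% in the 7 contrasts. Adding readthrough reads left the number of contrasts with a lower ratio as it was for each pair.

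**Figure D4:**
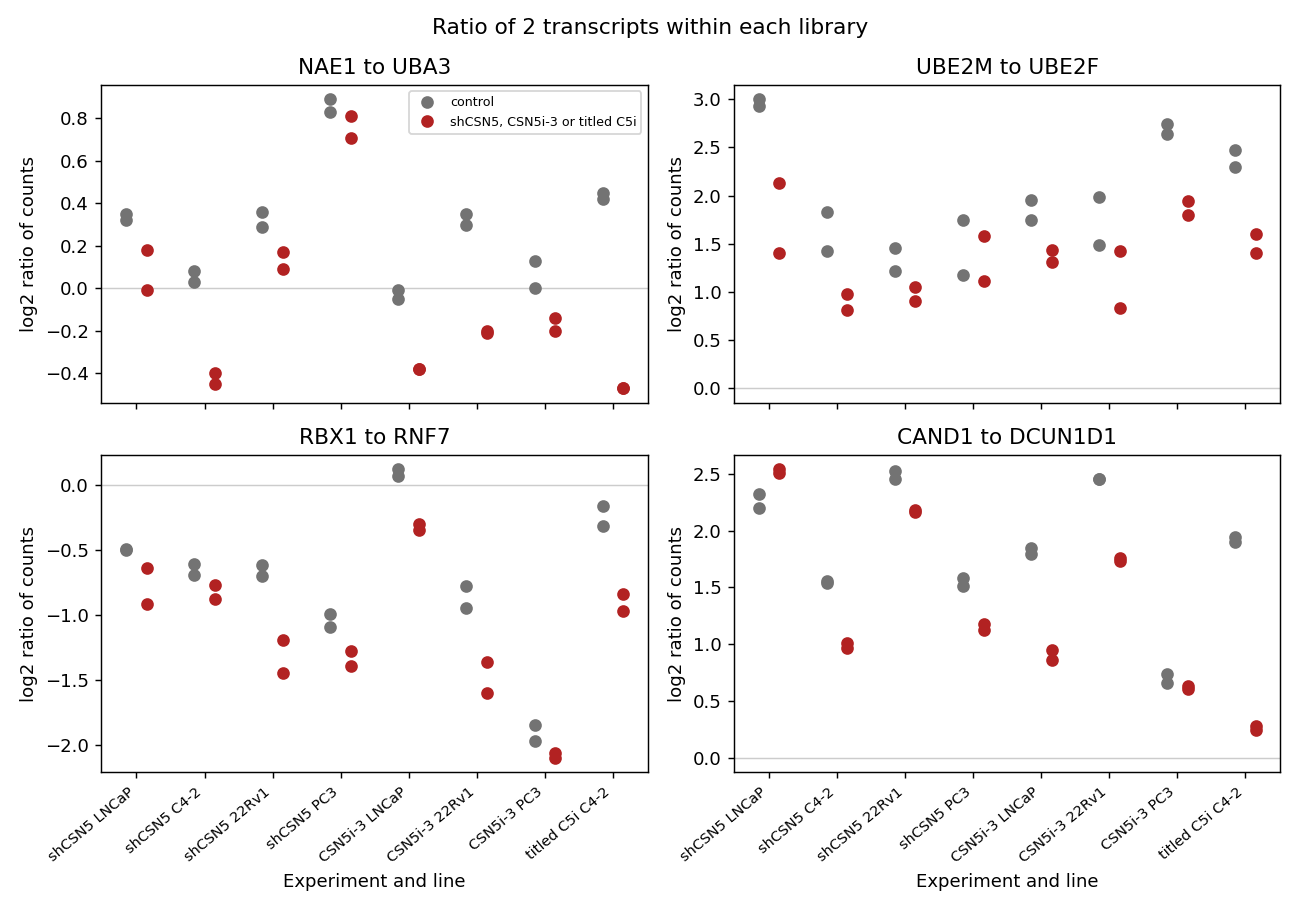
Log2 ratio of the counts of 2 genes in each library (points) for 4 pairs, by contrast; grey is control and red is shCSN5, CSN5i-3 or titled C5i. For NAE1 to UBA3 and RBX1 to RNF7 the red points lie below the grey ones in every contrast, with C4-2 inhibitor libraries coloured by title.

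The knockdown effect on several members differed between the 4 lines. A test of any difference among lines passed for 4 of 10 members, where 38.8% of all genes passed: RNF7 (adjusted p = 0.00027), UBE2F (adjusted p = 0.0027), RBX1 (adjusted p = 0.021) and DCUN1D1 (adjusted p = 0.047). For RBX1 it was lost without LNCaP scramble replicate 1 or 2 or PC3 scramble replicate 1 (adjusted p from 0.053 to 0.07). For DCUN1D1 it was lost in 10 of the 16 fits that left out 1 library (adjusted p from 0.05 to 0.15). Leaving out 1 library lost RBX1 and DCUN1D1 only, and the RNF7 and UBE2F differences held in all 16 fits. For NEDD8 the difference was not called (adjusted p = 0.094) and passed in 7 of the 16 (adjusted p from 0.0077 to 0.04). Averaged over the 4 lines, 2 of 10 members passed against 34.2% of all genes. UBE2F was higher by 0.48 ± 0.12 (adjusted p = 0.0077), which held in all 16 fits that left out 1 library. RNF7 was higher by 0.28 ± 0.097 (adjusted p = 0.035), which was lost in 12 of the 16, namely without any library of LNCaP, C4-2 or 22Rv1 (0.22 to 0.29, adjusted p from 0.052 to 0.13).

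For some members the response to shCSN5 differed between PC3 and LNCaP. The effect in PC3 was lower than in LNCaP by 1.05 for UBE2F (-1.05 ± 0.20, adjusted p = 0.0078), by 0.85 for RBX1 (-0.85 ± 0.17, adjusted p = 0.01) and by 0.83 for RNF7 (-0.83 ± 0.13, adjusted p = 0.0037). These were 3 of 10 members, where 24.1% of all genes passed. The UBE2F difference was lost without PC3 shCSN5 replicate 2 (-0.82, adjusted p = 0.056) or LNCaP scramble replicate 1 (-1.02, adjusted p = 0.053), and that of RBX1 without PC3 shCSN5 replicate 2 or either LNCaP scramble library (-0.87 to -0.68, adjusted p from 0.059 to 0.068). The RNF7 difference held in all 8 such fits. DCUN1D1 (0.59) and NEDD8 (-0.56) were called in addition without LNCaP shCSN5 replicate 1 and 2, respectively. PC3 shCSN5 replicate 2 is the library with the conflicting characteristic. Between C4-2 and LNCaP, and between 22Rv1 and C4-2, 0 of 10 effects differed by edgeR, against 12.1% and 13.3% of all genes. Counts at an unadjusted p under 0.05 were 2 and 3, and those of DESeq2 were 0 and 0. In 22Rv1 minus C4-2 the nearest were RNF7 (0.32 ± 0.095, adjusted p = 0.058) and UBE2F (-0.41 ± 0.12, adjusted p = 0.061). RNF7 passed there with total counts (0.42), and UBE2F (-0.54) and DCUN1D1 (-0.53) without C4-2 scramble replicate 1. In C4-2 minus LNCaP, DCUN1D1 passed without that library (0.80) or LNCaP shCSN5 replicate 1 (0.81), and UBE2M without LNCaP shCSN5 replicate 2 (0.58).

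Inhibitor and knockdown were compared within a line as a difference of their effects. In PC3 the inhibitor effect exceeded the knockdown effect for UBE2F (0.65 ± 0.14, adjusted p = 0.0091), RBX1 (0.42 ± 0.12, adjusted p = 0.024) and RNF7 (0.29 ± 0.097, adjusted p = 0.048), 3 of 10 members where 39.1% of all genes passed. UBE2F was lost without CSN5i-3 replicate 1 or either DMSO library (0.52 to 0.60, adjusted p from 0.051 to 0.07). RBX1 and RNF7 were lost with total counts (0.28 and 0.14), with DESeq2 (adjusted p = 0.051 and 0.12), with no low-count filter (0.34 and 0.21), and in 6 and 7 of the 8 fits that left out 1 library (RBX1 0.30 to 0.40, adjusted p from 0.067 to 0.17; RNF7 0.17 to 0.32, adjusted p from 0.087 to 0.34). CAND1 was called in PC3 without shCSN5 replicate 1 or scramble replicate 2 (0.51 and 0.53), and UBA3 without the latter (0.38). In LNCaP the inhibitor effect was below that of knockdown for SENP8 (-0.99 ± 0.25, adjusted p = 0.027) and CAND1 (-0.64 ± 0.17, adjusted p = 0.031), 2 of 10 members where 21.3% of all genes passed. SENP8 was lost in 5 of the 8 fits that left out 1 library (-1.03 to -0.83, adjusted p from 0.068 to 0.12), and CAND1 in 6 of them (-0.70 to -0.53, adjusted p from 0.061 to 0.13) and with DESeq2 (-0.58, adjusted p = 0.055). DCUN1D1 was called in LNCaP without either shCSN5 library (0.71 and 0.51), RNF7 without shCSN5 replicate 1 (-0.31), and UBE2M (0.75), UBE2F (-0.33) and RBX1 (-0.45) without replicate 2. In 22Rv1 no member differed by edgeR, against 4.28% of all genes, with UBE2F changes of 0.33 with shCSN5 and 0.50 with CSN5i-3. DCUN1D1 passed without CSN5i-3 replicate 1 (0.66, adjusted p = 0.031). The 5 µM effects of LNCaP and 22Rv1 also differed for no member by edgeR, against 15.6% of all genes. Unadjusted p-values under 0.05 numbered 1 and 0 in these comparisons, and DESeq2 calls 0 and 0. Knockdown and inhibitor libraries stand in separate tables, so experiment and table cannot be told apart.

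Around these members, the other genes of the pathway moved unevenly. Of 12 further NEDD8 pathway genes, more were called higher than lower in all 4 knockdown lines. In LNCaP 4 of 11 tested were called (all genes 35.7%), in C4-2 3 of 11 (32.0%) and in PC3 1 of 12 (16.7%), all of them higher, and in 22Rv1 4 of 12 were higher and 2 lower (43.9%). The number called was thus near the share among all genes. With CSN5i-3, 7 of 12 were higher and 2 lower in LNCaP, 1 was higher in 22Rv1, and 6 were higher and 5 lower in PC3, where 52.6%, 24.0% and 77.1% of all genes were called. DCUN1D2, a paralogue of DCUN1D1, was called higher in the same contrasts as UBE2F. It rose with shCSN5 in LNCaP (0.84 ± 0.16), C4-2 (0.41 ± 0.13) and 22Rv1 (0.27 ± 0.096), and with CSN5i-3 in LNCaP (0.76 ± 0.091) and PC3 (0.25 ± 0.058). Its edgeR calls in C4-2 and 22Rv1 lay close to the threshold (adjusted p just under 0.05 in C4-2 and 0.044 in 22Rv1). Calls of these further genes were not checked in the alternative fits. DCUN1D3, another paralogue, rose with shCSN5 in LNCaP (0.57 ± 0.16), C4-2 (0.51 ± 0.16) and 22Rv1 (1.01 ± 0.14). With CSN5i-3 it rose in LNCaP (0.59 ± 0.098) but fell in PC3 (-0.72 ± 0.085). UCHL3, a hydrolase that can process NEDD8, rose with CSN5i-3 in LNCaP (0.53 ± 0.082) and 22Rv1 (0.75 ± 0.19) and fell in PC3 (-0.23 ± 0.081). ARIH1, a ubiquitin ligase that acts on substrates of neddylated cullin ligases, rose with shCSN5 in LNCaP (0.73 ± 0.16) and C4-2 (0.35 ± 0.10), and with CSN5i-3 in LNCaP (0.28 ± 0.085) and PC3 (0.74 ± 0.039).

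CUL5, the cullin served by UBE2F and RNF7, had no single direction. It fell in LNCaP with shCSN5 (-0.86 ± 0.20, adjusted p = 0.018), where UBE2F and RNF7 rose, and rose in PC3 (0.44 ± 0.11, adjusted p = 0.048), where neither was called. In C4-2 and 22Rv1 with shCSN5 it stood at 0.05 ± 0.12 and 0.01 ± 0.086. With CSN5i-3 it stood at 0.20 ± 0.076 in LNCaP (adjusted p = 0.059), 0.15 ± 0.17 in 22Rv1 and 0.0 ± 0.049 in PC3, and in titled C5i C4-2 libraries it was higher by 0.52 ± 0.10 (adjusted p = 0.00088), as were UBE2F and RNF7. With shCSN5, the 8 cullins together had 3 called higher and 2 lower in LNCaP (all genes 35.7%) and 0 called in C4-2 (32.0%). In 22Rv1 2 were lower (43.9%), and in PC3 1 went each way (16.7%). With CSN5i-3, 1 went each way in LNCaP (52.6%), 0 were called in 22Rv1 (24.0%), and 2 were higher and 4 lower in PC3 (77.1%). The related SUMO machinery, 16 genes for another protein related to ubiquitin, had 2 called in LNCaP, 1 in C4-2 and 6 in 22Rv1, all lower, and 1 in PC3, higher, with shCSN5. The shares of all genes called there were 35.7%, 32.0%, 43.9% and 16.7%. With CSN5i-3, 5 of the 16 were higher and 3 lower in LNCaP (all genes 52.6%), 1 was lower in 22Rv1 (24.0%), and 9 were higher and 5 lower in PC3 (77.1%). SENP1, a protease that strips SUMO, was among those that fell with shCSN5 in LNCaP (-0.93), C4-2 (-0.77) and 22Rv1 (-0.70). The median change of the SUMO genes lay between -0.15 and 0.0 in the knockdown lines, and that of the NEDD8 members between -0.16 and 0.13. No test compared these lists.

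Across the 16 group means, the genes whose log2 level was most like that of NEDD8 among 10348 genes of at least 5 CPM were PNPLA4 and NPIPA7 (both with a Pearson r of 0.755), NME1-NME2 (0.745), R3HDM2 (0.734) and NDUFC2 (0.722). The groups share lines, tables and controls, so these values are a description with no test. None of the other members was close to NEDD8 by this measure. RBX1 (0.262) and UBE2M (0.260) were nearest and DCUN1D1 (-0.597) was farthest, while SENP8 was too low to be included.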

How the data were processed

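Per the submitters' processing notes, the authors used Partek, and the deposited values are whole-number counts per gene in 6 tables. Of aligner, genome build, annotation and strand setting, the sources used here name none, so overlapping and antisense genes may share reads. Of the tables, 4 list 57445 Ensembl IDs each and 2 list symbols (21549 and 16603), the latter cut to genes with at least 3 counts in some library. The table of 16603 symbols also had 1 row without a name, which was left out.

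Each contrast was fitted on its own 4 libraries (2 residual degrees of freedom), and differences of effects on the libraries of both contrasts. Tests were by quasi-likelihood in edgeR 4.0.16 (R 4.3.3), with TMM scaling, filterByExpr at a minimum count of 10 and Benjamini-Hochberg adjustment over all genes tested. Each SE was taken as |log2 fold change| over the square root of the F statistic. Levels in CPM use the TMM scaling of the 4 libraries of a contrast. The fit was tried on simulated counts for LNCaP with shCSN5 only, with 1 spread for all genes. It recovered 85 of 100 genes changed by 1 on the log2 scale and 100 of 100 changed by 2, with 7 false calls. The real LNCaP groups differed in spread (chi-square per gene 71.3 and 1.83) and most member changes were smaller. The simulation therefore does not show how well such changes are found. With 2 libraries a group, only the spread between those libraries sets the error.

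The 10 members and the gene lists were chosen with earlier results of these data known. The text names all members, COPS5, the readthrough genes, up to 2 called genes per list and direction, and the 5 genes most like NEDD8. CUL5, the leukocyte gene CD68 and some genes named in several contrasts fall outside that rule and were chosen after their values were seen. Alternatives were total-count scaling, DESeq2 1.42.0, no low-count filter, a replicate block, a spread shared by the 16 knockdown libraries, and each library left out in turn.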

Additional observations from a re-analysis of the deposited data

Results flagged for a closer look

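Effects of the same treatment, or of both treatments in a line, differed between groups for 6 members by a test of the difference itself in edgeR. In each of these tests the number of members called was near or below the share among all genes. The shCSN5 effect in PC3 minus that in LNCaP was -1.05 for UBE2F, -0.85 for RBX1 and -0.83 for RNF7 on the log2 scale. These were 3 of 10 members, against 24.1% of all genes. Over the 4 lines, the test of any difference in the shCSN5 effect gave an adjusted p of 0.0027 for UBE2F, 0.021 for RBX1, 0.00027 for RNF7 and 0.047 for DCUN1D1. That was 4 of 10 members, against 38.8% of all genes. In LNCaP, the CSN5i-3 effect minus the shCSN5 effect was -0.99 for SENP8 and -0.64 for CAND1 (2 of 10 members, all genes 21.3%). In PC3 it was 0.65 for UBE2F, 0.42 for RBX1 and 0.29 for RNF7 (3 of 10 members, all genes 39.1%). Each call here was lost in some alternative fit, apart from RNF7 in PC3 minus LNCaP and RNF7 and UBE2F over the 4 lines. The PC3 and LNCaP differences in shCSN5 effect and the difference of treatments in PC3 share the PC3 knockdown libraries.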

How the results depend on the processing

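Of 2080 alternative values for single members, 1882 stayed on their side of the threshold (93 of them changed sign without being called), and 1 was called in the opposite direction: NEDD8 in LNCaP with shCSN5 was -0.15 without shCSN5 replicate 1 and 0.16 without replicate 2. Total-count scaling moved the members' log2 fold changes by a median of -0.19 in the titled C4-2 contrast, -0.11 in LNCaP with CSN5i-3, 0.11 in the scramble 22Rv1 minus C4-2 contrast, 0.17 in the shCSN5 effect of PC3 minus LNCaP and -0.14 in inhibitor minus knockdown in PC3. With it, the number of members called was 0 in PC3 with shCSN5 (1 in the fit as reported), 1 in the effect of 22Rv1 minus C4-2 (0) and 1 in inhibitor minus knockdown in PC3 (3). DESeq2 called 1 in inhibitor minus knockdown in LNCaP (2) and 1 in PC3 (3). With no low-count filter the numbers were 1 in C4-2 with shCSN5 (2), 1 in 22Rv1 with CSN5i-3 (0), 1 in inhibitor minus knockdown in PC3 (3) and 1 over the 4 lines (2). With the shared spread they were 1 in 22Rv1 (3) and 2 in PC3 (1) with shCSN5. Only the larger shifts in number are listed here and, below, for the replicate block and for all genes. Smaller shifts also occurred, as where UBE2M and NAE1 were lost in LNCaP with CSN5i-3 under DESeq2 and under the block.

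Replicate numbers are only numbers in these labels. Deviations of same-numbered libraries correlated, across genes, at -0.10, -0.61, 0.48 and 0.77 in LNCaP, C4-2, 22Rv1 and PC3 with shCSN5, at -0.27, -0.85 and -0.01 in LNCaP, 22Rv1 and PC3 with CSN5i-3, and at -0.34 in the titled C4-2 contrast. With the replicate number as a block, members called were 1 in LNCaP (2), 1 in C4-2 (2) and 6 in PC3 (1) with shCSN5, 3 in the scramble 22Rv1 minus C4-2 contrast (6), 1 in inhibitor minus knockdown in LNCaP (2), 5 in PC3 (3) and 1 over the 4 lines (2). Crossed pairing, chosen after seeing the data, called 4 in C4-2 with shCSN5 and 6 in 22Rv1 with CSN5i-3, and 7890 and 10422 of all genes (4754 and 4010).

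Leaving out 1 library at a time gave, for members called with shCSN5, 0 to 8 in LNCaP, 1 to 2 in C4-2, 1 to 3 in 22Rv1 and 0 to 2 in PC3. With CSN5i-3 it gave 2 to 8 in LNCaP, 0 to 3 in 22Rv1, 6 to 7 in PC3 and 5 to 8 in the titled C4-2 contrast. For scramble libraries the range was 6 to 9 in PC3 minus LNCaP, 3 to 4 in 22Rv1 minus C4-2 and 7 to 10 in C4-2 minus LNCaP. For differences in shCSN5 effect it was 1 to 4, 0 to 2 and 0 to 1 in the same order, and 2 to 5 for any difference and 1 to 2 for the mean over the 4 lines. Inhibitor minus knockdown gave 0 to 6 in LNCaP, 0 to 1 in 22Rv1 and 0 to 5 in PC3. Where a group is left with 1 library, that library is assumed to vary like the other group.

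Over all genes, calls with no low-count filter were 3139 in C4-2 (4754) and 4273 in PC3 (2578) with shCSN5 and 2028 in inhibitor minus knockdown in 22Rv1 (730), and with the shared spread 4304 in PC3 (2578). With the block they were 8180 in PC3 with shCSN5 (2578), 1237 in the effect of 22Rv1 minus C4-2 (2262), 831 in C4-2 minus LNCaP (1913), 815 in the 5 µM effect of LNCaP minus 22Rv1 (2887), 19 in inhibitor minus knockdown in 22Rv1 (730) and 10074 in PC3 (6559). The widest relative ranges without 1 library were 2085 to 11260 in LNCaP (5326) and 1048 to 4566 in PC3 (2578) with shCSN5, 644 to 4540 in the effect of C4-2 minus LNCaP (1913), 1501 to 7862 in inhibitor minus knockdown in LNCaP (3803), and 43 to 1500 in inhibitor minus knockdown in 22Rv1 (730). The cause of these shifts was not tested. SENP8, at 1.25 to 7.99 CPM, is the member whose error counting depth limits most.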

Other observations

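Libraries of the same line held different levels of several members in the 2 experiments, whose tables were deposited separately and were not tested against each other. For C4-2 the labels conflict on which inhibitor libraries are the control, so both are given. DCUN1D1 had a mean of 105 CPM with scramble in C4-2, 25.6 CPM in titled NT and 55.6 CPM in titled C5i. CAND1 stood at 308, 96.7 and 66.7 CPM in the same order, UBA3 at 114, 40.7 and 48.6 CPM, and NAE1 at 118 CPM, 54.9 and 35.1 CPM. UBE2M was the reverse in C4-2, at 90.1 CPM with scramble, 155 CPM in titled NT and 165 CPM in titled C5i. PC3 showed the same order, with CAND1 at 210 CPM with scramble and 81.6 CPM with DMSO, NAE1 at 113 and 42.9 CPM, and UBE2M at 113 and 227 CPM. In LNCaP the CAND1 means were nearer, at 153 CPM with scramble and 138 CPM with DMSO.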
